A study of Mus musculus with 4 samples.

Results

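The cytosolic ribosome of the mouse brain is described here through the genes that encode its proteins. They were taken by name from the deposited tables, as every gene called Rpl or Rps with a number and at most 1 further letter and digit, together with the stalk genes Rplp0, Rplp1 and Rplp2 and the laminin receptor gene Rpsa, and without names that end in ps and a number. This gave 88 genes of 44766, with 463 transcript rows. The messenger RNA level of each gene is given in FPKM, fragments divided by the length of the transcript and the size of the library, summed over its transcripts. A mean of at least 1 FPKM over the 4 libraries was reached by 84 of the 88 genes and by 13732 of all genes.

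RNA came from the brains of 4 groups of mice labelled as wild type. F1r are hybrids written CAST/EiJ x C57BL/6, F1i are hybrids written C57BL/6 x CAST/EiJ, CAST is the wild-derived strain CAST/EiJ, and B6 is the laboratory strain C57BL/6. Each group is 1 library made from RNA pooled over the left hemispheres of 5 mice, per the labels' protocols, while the series' design text speaks of the whole brain; sex, age and which parent was the dam are not given in the labels. With 1 library per group no difference below has an error, a replicate check or a p-value, and counts are of genes whose log2(FPKM + 1) differed by at least 1, a 2-fold change.

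A ribosome is built from a small subunit, which decodes the messenger RNA, and a large subunit, which joins amino acids. Nearly every protein of both subunits is present once per ribosome, so cells make them in matched amounts, and their messengers are known to begin with a C followed by a run of pyrimidines, the 5′ terminal oligopyrimidine or TOP motif, through which the mTOR pathway and Larp1 control their translation. In neurons, ribosomes also work in dendrites and axons, far from the cell body. Ribosomal protein genes have left an unusually large number of processed pseudogenes in mammalian genomes, which are intron-less copies of their messengers inserted elsewhere, and short reads from a gene and a near-identical copy are hard to tell apart.

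Of the 88 genes, 77 carry the plain name of a ribosomal protein, 46 of the large and 31 of the small subunit. The other 11 are named as relatives: Rpl3l, Rpl6l, Rpl7l1, Rpl10l, Rpl22l1, Rpl39l, Rps3a2, Rps3a3, Rps4l, Rps12l1 and Rps27l. GENCODE M21 lists 83 of the genes as protein-coding and 5 (Rpl6l, Rps3a2, Rps3a3, Rps12l1 and Rps4l) as pseudogenes. They lie on 19 chromosomes, with Rpl10, Rpl36a, Rpl39 and Rps4x on the X.

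Many of these genes carry the pyrimidine run at their start site. RefSeq promoters of GRCm38.p6 were matched for 63 genes with 75 start sites, and the 50 bases from 30 before to 20 after the site are shown for 7 genes, 6 with a run of 5 or more bases and Rps3a1 without. Capitals mark the longest run that opens with C and goes on with C or T, starting within 5 bases of the site.
Rpl27a (chr7:109519165-109519214, plus strand): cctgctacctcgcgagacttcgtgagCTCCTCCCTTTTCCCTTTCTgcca
Rps10 (chr17:27635225-27635274, minus strand): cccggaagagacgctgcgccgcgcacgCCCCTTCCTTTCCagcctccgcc
Rps6 (chr4:86857348-86857397, minus strand): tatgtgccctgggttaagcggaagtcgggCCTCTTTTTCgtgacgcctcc
Rpl18 (chr7:45718041-45718090, plus strand): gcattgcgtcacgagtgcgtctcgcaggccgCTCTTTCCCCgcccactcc
Rps27 (chr3:90213629-90213678, minus strand): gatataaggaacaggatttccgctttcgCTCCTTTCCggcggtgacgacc
Rps9 (chr7:3704011-3704060, plus strand): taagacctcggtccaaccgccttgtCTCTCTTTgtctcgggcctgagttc
Rps3a1 (chr3:86142649-86142698, minus strand): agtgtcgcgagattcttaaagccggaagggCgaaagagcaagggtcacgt

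Such a run of at least 5 bases was present at 31 of the 75 start sites (41.3%), against 18.3% of the 32776 start sites of all other genes, read on the strand of the gene. The letters CTTTC, counted apart from the run and often inside it, were present at 18.7% of the members' sites and at 2.30% of the others. A match is only a description of the letters in this window, and a start site annotated a few bases off would miss a run.

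The levels of the 77 plainly named genes ran over more than an order of magnitude, with a median of 146 FPKM in F1r, 169 FPKM in F1i, 133 FPKM in CAST and 188 FPKM in B6. Most lay between 50 and 400 FPKM, 65 of 77 in F1r, 63 in F1i, 62 in CAST and 64 in B6. The highest was Rps29, a small subunit protein, with 1516 FPKM in F1r, 1774 FPKM in F1i, 1629 FPKM in CAST and 1657 FPKM in B6. It was followed by Rplp1, an acidic protein of the large subunit stalk, with 966 FPKM in F1r, 1121 FPKM in F1i, 1043 FPKM in CAST and 1132 FPKM in B6. Rps27, Rpl38 and Rpl41 came next. Rpl38 is the gene behind the Tail short mouse, and Rpl41 encodes the smallest ribosomal protein. For these short transcripts the length correction in FPKM is large, so their rank depends on it.

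Together the genes held 5.80% of the summed FPKM in F1r, 6.35% in F1i, 5.47% in CAST and 6.88% in B6, counted over transcripts of at least 200 bases outside small RNA and mitochondrial genes. With all transcripts and small RNA genes in the total the order turned, with 0.878% in F1r, 0.811% in F1i, 0.880% in CAST and 0.873% in B6, so that CAST was highest and F1i lowest. B6 had the highest level of the 4 libraries for 56 of the 77 plainly named genes. CAST had the lowest for 43 and F1r for 28. These ranks are of the values as deposited, and were not counted over all genes or with the libraries rescaled. Relative to B6, the depth read from the step that 1 fragment is worth was 0.759 in F1r, 0.813 in F1i and 0.708 in CAST, and the absolute depth is unknown.

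**Figure D1:**
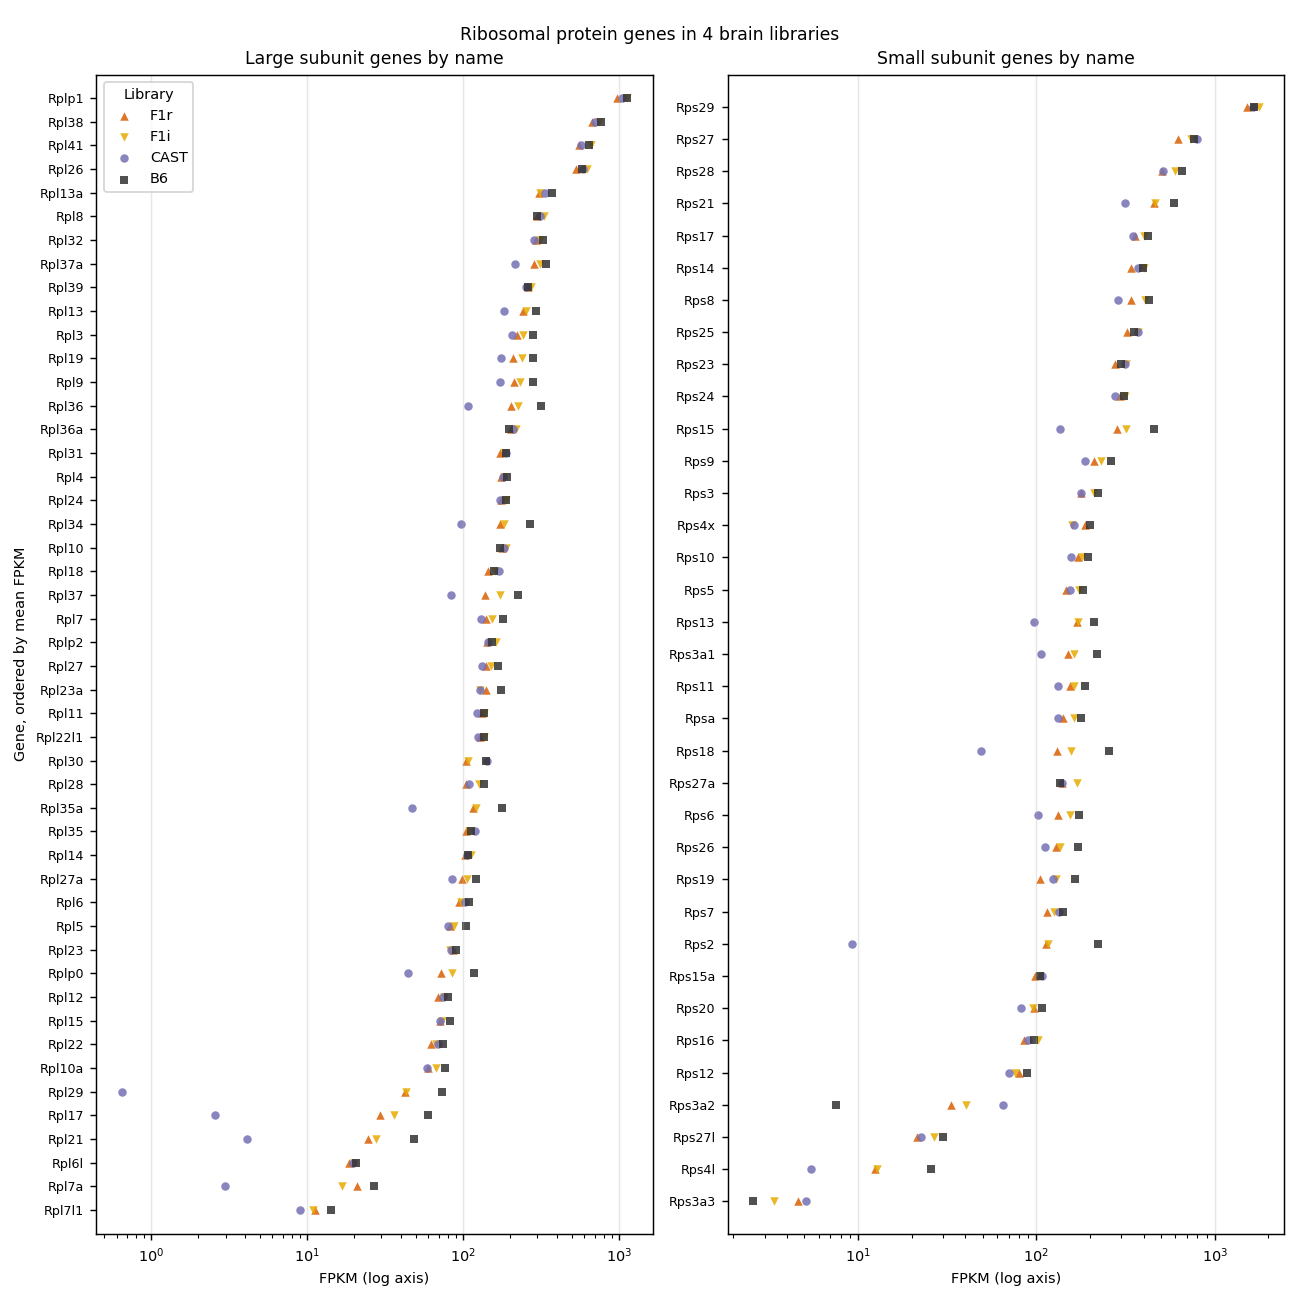
FPKM (log axis) of genes with a mean of at least 1 FPKM, large subunit names on the left and small subunit names on the right, with 1 point per library. Most genes have their 4 points close together, while Rpl29, Rpl17, Rpl21, Rpl7a and Rps2 have CAST far to the left and Rps3a2 has B6 far to the left.

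Of the other stalk genes, Rplp2 had 142 FPKM in F1r, 163 FPKM in F1i, 146 FPKM in CAST and 153 FPKM in B6, and Rplp0, the base on which Rplp1 and Rplp2 sit, is described with the genes lower in CAST. Rpsa, also known as the laminin receptor, had 141 FPKM in F1r, 163 FPKM in F1i, 132 FPKM in CAST and 177 FPKM in B6. Rps27a, made as a fusion with ubiquitin, had 140 FPKM in F1r, 169 FPKM in F1i, 140 FPKM in CAST and 136 FPKM in B6. It was the 1 plainly named gene of 77 with both hybrids above both parents, but F1r and CAST were all but level, at 140.01 and 139.95 FPKM. The same pattern was not counted over all genes.

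The relatives were mostly far below their partners per length. Rpl22l1 was the exception, with 128 FPKM in F1r, 136 FPKM in F1i, 125 FPKM in CAST and 137 FPKM in B6, where Rpl22 had 62.0 FPKM in F1r, 66.8 FPKM in F1i, 69.5 FPKM in CAST and 74.5 FPKM in B6. Rps27l, known in human cells as a p53 target, had 21.3 FPKM in F1r, 26.5 FPKM in F1i, 22.5 FPKM in CAST and 29.8 FPKM in B6, where Rps27 was between 620 and 796 FPKM. Rpl7l1 had between 8.96 FPKM in CAST and 14.2 FPKM in B6, and its partner Rpl7 between 131 FPKM in CAST and 179 FPKM in B6. Rpl6l, Rpl7a, Rps4l and Rps3a3 were, with Rpl7l1, the 5 lowest genes that passed the filter.

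4 genes did not pass. Rpl10l, which stands in for the X-linked Rpl10 in male germ cells, was listed at 0 in all 4 libraries. Rpl39l, the germ cell relative of Rpl39, was listed at 0 in F1r, F1i and CAST and at 0.0395 FPKM in B6. Rpl3l, the heart and skeletal muscle form of Rpl3, had 0.0766 FPKM in F1r, 0.125 FPKM in F1i, 0.106 FPKM in CAST and 0.264 FPKM in B6. Rps12l1, whose every 31-base word is found in other genes, had 0.293 FPKM in F1r and 0.318 FPKM in B6 and was listed at 0 in F1i and CAST.

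Between the parents, 15 of the 84 genes were at least 2-fold lower in CAST than in B6 and 1 was higher. Among all 13732 genes, 2.24% were lower and 2.81% higher by the same rule, and among protein-coding genes 1.83% were lower. The 15 were 9 large subunit genes (Rpl29, Rpl17, Rpl21, Rpl7a, Rpl35a, Rpl36, Rpl34, Rpl37 and Rplp0) and 6 small subunit genes (Rps2, Rps18, Rps4l, Rps15, Rps13 and Rps3a1); the gene higher in CAST was Rps3a2. Members just outside the rule were Rps21, with a difference of -0.90, and Rps6, with -0.77.

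The shift was not limited to these genes. Over the 84 genes the median difference was -0.32 on the log2(FPKM + 1) scale, against 0.04 over all genes, and 69 of 84 were below 0, against 44.6% of all genes. With the 14 plainly named genes past the rule set aside, the median of the other 63 was -0.18. The median was -0.19 for large subunit names and -0.34 for small subunit names. Rescaling the libraries to a common total moved the median of all genes to 0.19 and that of the ribosomal genes to -0.15, a distance of -0.34 between them, close to the -0.36 of the values as deposited.

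Some cell type markers had the same order of CAST and B6, and their part in the ribosomal values was not tested. The 4 oligodendrocyte markers were all below 0 in CAST minus B6, and their sum was 1395 FPKM in F1r, 1514 FPKM in F1i, 1112 FPKM in CAST and 1775 FPKM in B6. The 4 microglial markers, 3 of them below 0, summed to 59.0 FPKM in F1r, 68.9 FPKM in F1i, 57.9 FPKM in CAST and 75.3 FPKM in B6. The 4 astrocyte markers, 3 of them below 0, summed to 503 FPKM in F1r, 558 FPKM in F1i, 490.1 FPKM in CAST and 611 FPKM in B6. In these glial lists F1r was also below F1i, as in the ribosomal genes.

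Neuronal markers were also lower in CAST than in B6 when summed, but F1r was above F1i, and endothelial markers had neither order. The 4 neuronal markers, 3 of them below 0, summed to 1118 FPKM in F1r, 1040 FPKM in F1i, 970 FPKM in CAST and 1056 FPKM in B6. The 4 endothelial markers, 1 of them below 0, summed to 38.5 FPKM in F1r, 36.5 FPKM in F1i, 40.0 FPKM in CAST and 39.3 FPKM in B6. All 20 markers of these brain cells and none of the 3 liver markers passed the filter, and the muscle gene Acta1 was at 5.17 FPKM in B6 and at most 2.26 FPKM in the others. In bulk tissue, fewer cells of a type and less RNA per cell cannot be told apart.

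Rpl29, a large subunit protein on chr9:106429454-106431568, had the largest difference. It had 42.5 FPKM in F1r, 42.9 FPKM in F1i, 0.648 FPKM in CAST and 73.1 FPKM in B6, a CAST minus B6 difference of -5.49. Its main transcripts, both protein-coding and of 710 and 733 bases, were listed at 0 in CAST. Both hybrids lay between the parents.

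Rpl17, whose protein lines the tunnel through which the new chain leaves the ribosome, had 29.3 FPKM in F1r, 35.8 FPKM in F1i, 2.55 FPKM in CAST and 59.2 FPKM in B6, a difference of -4.08. Rpl21 had 24.5 FPKM in F1r, 27.9 FPKM in F1i, 4.15 FPKM in CAST and 48.3 FPKM in B6, a difference of -3.26. Rpl7a had 21 FPKM in F1r, 16.6 FPKM in F1i, 2.99 FPKM in CAST and 26.8 FPKM in B6, a difference of -2.80. In all 3 the hybrids were far above CAST and below B6, and CAST was at 4.31%, 8.59% and 11.2% of B6.

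The other large subunit genes were lower by less. Rpl35a, mutated in some families with Diamond-Blackfan anaemia in humans, had 116 FPKM in F1r, 121 FPKM in F1i, 47.3 FPKM in CAST and 178 FPKM in B6, a difference of -1.89. Rplp0 (chr5:115559467-115563727) had 72.5 FPKM in F1r, 85 FPKM in F1i, 44.1 FPKM in CAST and 118 FPKM in B6, a difference of -1.40. Rpl36, Rpl34 and Rpl37, with differences of -1.55, -1.48 and -1.42, each had CAST lowest, B6 highest and the hybrids between them. A coding transcript of Rpl34, of 624 bases, ran the other way. It had 21.8 FPKM in F1r, 21.8 FPKM in F1i, 41.5 FPKM in CAST and 19.7 FPKM in B6.

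In the small subunit, Rps2 (chr17:24718116-24721929), a protein near the entry of the messenger channel, had 114 FPKM in F1r, 116 FPKM in F1i, 9.28 FPKM in CAST and 220 FPKM in B6, a difference of -4.43. Its main protein-coding transcript, of 998 bases, had 105 FPKM in F1r and 106 FPKM in F1i, was listed at 0 in CAST, and had 208 FPKM in B6. Most of the signal left in CAST was on another coding transcript and 2 with retained introns, each of which was below 9 FPKM in every library.

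Rps18 (chr17:33951999-33956001), a protein of the small subunit head, had 130 FPKM in F1r, 157 FPKM in F1i, 48.8 FPKM in CAST and 255.3 FPKM in B6, a difference of -2.36. Its transcripts did not move together. The main one, of 600 bases, had 122 FPKM in F1r, 151 FPKM in F1i, 12 FPKM in CAST and 248 FPKM in B6, while a second coding transcript, of 527 bases, had 2.63 FPKM in F1r, 1.68 FPKM in F1i, 29.4 FPKM in CAST and 1.22 FPKM in B6.

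Rps15, a head protein close to the decoding site, had 282 FPKM in F1r, 317 FPKM in F1i, 135 FPKM in CAST and 454 FPKM in B6, a difference of -1.74. Rps13 had 170 FPKM in F1r, 170 FPKM in F1i, 96.7 FPKM in CAST and 211 FPKM in B6, a difference of -1.11. Rps4l (chr6:148354656-148355598), annotated as a transcribed processed pseudogene and named after Rps4x, had 12.5 FPKM in F1r, 12.7 FPKM in F1i, 5.45 FPKM in CAST and 25.6 FPKM in B6, a difference of -2.04. In all 3 the hybrids were between the parents and close to each other.

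Rps3a1 and Rps3a2 went in opposite directions. Rps3a1 (chr3:86137940-86142702) had 150 FPKM in F1r, 163 FPKM in F1i, 106 FPKM in CAST and 219 FPKM in B6, a difference of -1.04. Rps3a2 (chr14:88123017-88123808), annotated as a processed pseudogene, had 33.2 FPKM in F1r, 40.3 FPKM in F1i, 64.7 FPKM in CAST and 7.50 FPKM in B6, a difference of 2.95.

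How alike a gene and its copy are can be read from their sequences. For 4 of the genes lower in CAST, the 75 coding bases of the GENCODE M21 transcript (GRCm38) that hold the most differences from a copy are shown with the same stretch of the copy, and capitals mark the bases that differ. The copies are Rps2-ps13 (chrX:52898588-52899469), Gm10260 (chr13:97760072-97760632), Rps3a2 and Rps13-ps1 (chr8:87047689-87048226).
Rps2: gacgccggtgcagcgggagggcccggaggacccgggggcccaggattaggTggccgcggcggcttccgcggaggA
Rps2-ps13: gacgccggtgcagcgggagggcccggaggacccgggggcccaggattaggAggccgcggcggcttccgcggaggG
Rps18: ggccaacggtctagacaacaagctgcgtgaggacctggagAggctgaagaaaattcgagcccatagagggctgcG
Gm10260: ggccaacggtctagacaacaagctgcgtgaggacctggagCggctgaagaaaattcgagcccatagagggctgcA
Rps3a1: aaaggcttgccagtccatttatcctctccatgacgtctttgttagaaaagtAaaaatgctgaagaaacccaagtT
Rps3a2: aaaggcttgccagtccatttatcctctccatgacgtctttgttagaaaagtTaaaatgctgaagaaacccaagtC
Rps13: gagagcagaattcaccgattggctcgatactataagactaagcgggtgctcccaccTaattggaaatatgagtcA
Rps13-ps1: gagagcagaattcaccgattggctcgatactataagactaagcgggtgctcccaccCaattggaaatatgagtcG

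Over the whole coding sequence, Rps2 and Rps2-ps13 were identical at 872 of 879 bases, Rps18 and Gm10260 at 452 of 456, Rps3a1 and Rps3a2 at 788 of 792, and Rps13 and Rps13-ps1 at 451 of 453. These are reference sequences of the B6 genome. Over all 88 genes, the median share of 31-base words of a gene's transcripts that also occur in another gene was 25.1%, with a range from 0 to 100%, and 30 genes were under 20%. Of the 15 genes lower in CAST, 4 were under 20% (Rpl35a at 7.48%, Rpl34 at 10.4%, Rpl37 at 16.6% and Rpl21 at 16.9%) and Rpl36 was at 94.1%. Words are pooled over all transcripts of a gene, and a low share does not mean few reads on copies. In the sums with copies given below, copies held 20.2% of the CAST signal for Rpl35a, 39.9% for Rpl34, 74.6% for Rpl37 and 69.9% for Rpl21.

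The copies of many of these genes were high where the gene was low. Gm10260, a copy of Rps18, had 47.8 FPKM in F1r, 56.3 FPKM in F1i, 112 FPKM in CAST and 1.09 FPKM in B6. Gm11361 (GENCODE M21 name), also a copy of Rps18, had 36.5 FPKM in F1r, 37.1 FPKM in F1i, 68.8 FPKM in CAST and 8.75 FPKM in B6. Both are annotated as protein-coding and lie on chromosome 13, with CAST highest, B6 lowest and both hybrids between.

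Rps13-ps1 had 67.9 FPKM in F1r, 70.6 FPKM in F1i, 134.1 FPKM in CAST and 4.21 FPKM in B6. Gm8730, a copy of Rplp0, had 26.1 FPKM in F1r, 30.3 FPKM in F1i, 53.9 FPKM in CAST and 2.24 FPKM in B6. Rpl37rt, a transcribed processed pseudogene of Rpl37, had 271 FPKM in F1r, 295 FPKM in F1i, 469 FPKM in CAST and 96.2 FPKM in B6, above Rpl37 itself per length in F1r, F1i and CAST.

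For other genes in the set, the named pseudogene that went furthest the other way from the gene was picked, so its direction follows from that choice. Rpl17-ps5 on chromosome 5 had 19.2 FPKM in F1r, 22.7 FPKM in F1i, 39.2 FPKM in CAST and 3.42 FPKM in B6. Rpl34-ps1 on chromosome 6 had 50.9 FPKM in F1r, 57.5 FPKM in F1i, 95.6 FPKM in CAST and 16.7 FPKM in B6. Rpl36-ps3 on chromosome 12 had 13.6 FPKM in F1r, 15.4 FPKM in F1i, 27.4 FPKM in CAST and 0.523 FPKM in B6. Each was highest in CAST, with both hybrids between the parents. Not every copy did so: Rpl17-ps3 (GENCODE M21 name) on chromosome 12 had 11.6 FPKM in F1r, 13.1 FPKM in F1i, 9.50 FPKM in CAST and 21.9 FPKM in B6, at least 2-fold lower in CAST like Rpl17 itself.

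Rps15-ps2 on chromosome 6 had 19.8 FPKM in F1r, 21.9 FPKM in F1i, 43.6 FPKM in CAST and 0.163 FPKM in B6. Rps18-ps3 was low in all libraries, with 2.53 FPKM in F1r, 2.28 FPKM in F1i, 3.69 FPKM in CAST and 1.12 FPKM in B6. The named pseudogenes that went furthest above 0 for Rpl35a, Rpl7a and Rpl21 had CAST minus B6 differences of 0.81, 0.51 and 0.24 in log2(FPKM + 1), less than 2-fold.

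Rpl7a had a pair of such copies, Gm16477 and Gm5619. Gm16477 had 12.1 FPKM in F1r, 16.8 FPKM in F1i, 25.7 FPKM in CAST and 1.80 FPKM in B6. Gm5619 had 15.6 FPKM in F1r, 17.8 FPKM in F1i, 29.9 FPKM in CAST and 0.459 FPKM in B6. Copies of genes that were not past the rule did the same: Gm8172, a copy of Rps6 on the X, had 38.2 FPKM in F1r, 43.8 FPKM in F1i, 78.2 FPKM in CAST and 0.831 FPKM in B6.

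Each gene was therefore also added up with its copies, on the scale of FPKM times length in kilobases, which is proportional to fragments. Copies were other genes with at least 30% of their own 31-base words in the member, and pseudogenes named after it, whatever their share. Each copy was counted for 1 member only, and no protein-coding member was counted as a copy. Copies were not searched for Rps4l or the other members annotated as pseudogenes. The threshold of 30% and the copies named above were chosen after the values were seen. There were 601 copies, most of them annotated as processed pseudogenes, and 75 of 81 families had at least 1. On their own, 16 of 84 genes were at least 2-fold lower in CAST on this scale. Over all genes only the ratio of summed FPKM, without length, was counted, and 3.76% were lower. Summed with their copies, 6 of 81 were lower and none was higher, and 69 were within 1.5-fold. The median log2 ratio was -0.14, against -0.32 for the 84 genes alone. The 81 leave out Rpl6l, Rps3a2 and Rps3a3, which were added to Rpl6 and Rps3a1. Rps3a2 was the only gene at least 2-fold higher on its own, so it could not be counted as higher here.

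Of the 15 genes counted as lower in CAST, 14 had copies, and in 13 families the copies together were higher in CAST than in B6. In 9 families the sum was within 2-fold between the parents. The Rps13 family had 140 FPKM times kb in F1r, 141 in F1i, 133 in CAST and 131 in B6, with 54.9% of it on copies in CAST and 3.73% in B6. The Rps18 family had 123 FPKM times kb in F1r, 144 in F1i, 122 in CAST and 160 in B6, with 77.9% on copies in CAST and 4.08% in B6. The Rpl37 and Rpl7a families were higher in CAST once summed, with log2 ratios of 0.23 and 0.70.

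**Figure D2:**
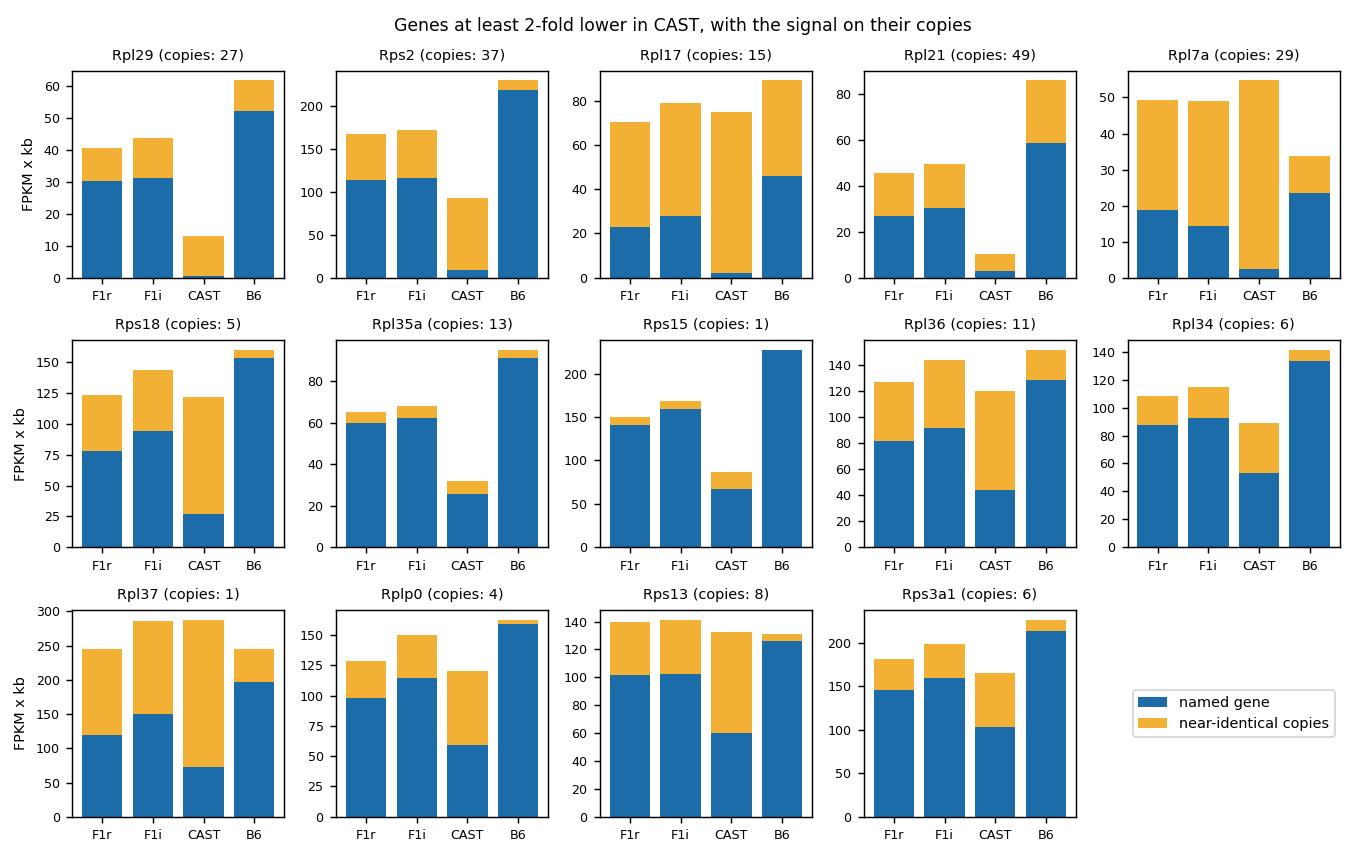
FPKM times length (kb, linear axes) in each library for 14 genes at least 2-fold lower in CAST than in B6, with the named gene in blue and the sum of its copies in yellow. In Rps13 the total is between 131 and 141 in every library while the copies hold 54.9% of it in CAST and 3.73% in B6. Rps4l, for which copies were not searched, is not drawn.

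Over all families, copies held 12.9% of the signal in F1r, 12.7% in F1i, 18.4% in CAST and 7.65% in B6. The named genes alone summed in CAST to 76.4% of their sum in B6, and genes with copies to 86.5%. Among the 186 copies with a mean of at least 1 FPKM, 48 were at least 2-fold higher in CAST and 12 lower, where 2.81% of all genes were higher and 2.24% lower. How much of the exchange between genes and copies arises in the assignment of reads was not tested.

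6 families were at least 2-fold lower in CAST after summing, among them Rps4l, to which no copies were added. Rpl21 with its 49 copies had 45.6 FPKM times kb in F1r, 49.4 in F1i, 10.3 in CAST and 85.9 in B6, a log2 ratio of -3.06. Its copy Rpl21-ps15 on the X was low in CAST like the gene, with 19.1 FPKM in F1r, 16.4 FPKM in F1i, 2.42 FPKM in CAST and 29.1 FPKM in B6. Rpl29 with 27 copies had 40.6 FPKM times kb in F1r, 43.6 in F1i, 13.2 in CAST and 61.7 in B6, a log2 ratio of -2.23.

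Rpl35a with 13 copies had 65.3 FPKM times kb in F1r, 67.9 in F1i, 32.0 in CAST and 94.9 in B6, a log2 ratio of -1.57. Rps15 with 1 copy had 150 FPKM times kb in F1r, 168 in F1i, 86.7 in CAST and 227 in B6, a log2 ratio of -1.39. Rps2 with 37 copies had 168 FPKM times kb in F1r, 172 in F1i, 93.4 in CAST and 230 in B6, a log2 ratio of -1.30. Rps4l, for which copies were not searched, could only keep its own log2 ratio of -2.23. In each of the 6 the hybrids were between the parents.

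**Figure D3:**
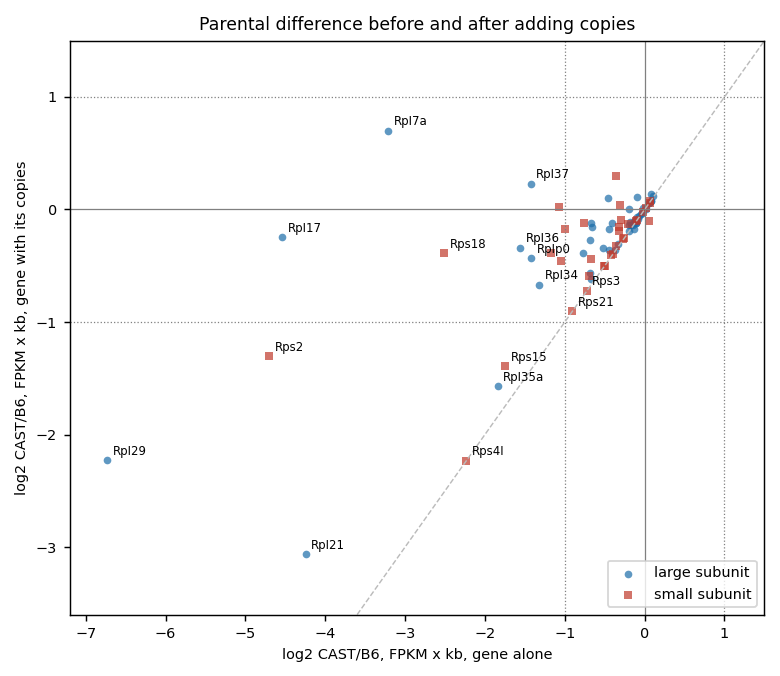
Log2 ratio of CAST to B6 in FPKM times length for 81 families, for the gene alone (horizontal axis) and with its copies (vertical axis); dotted lines mark 2-fold, the dashed line equality. Points above the dashed line had a higher ratio of CAST to B6 once summed, as Rpl7a (0.70) and Rps18 (-0.39) did. Rpl21, Rpl29, Rpl35a, Rps15 and Rps2 stayed below -1, as did Rps4l, to which no copies were added.

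Between the reciprocal hybrids no ribosomal protein gene was 2-fold apart, 0 of 84, while 0.495% of all genes were, 0.262% lower and 0.233% higher in F1r. The differences were small and mostly of the same sign. F1r was below F1i for 76 of 84 genes, against 41.8% of all genes, and the median was -0.12, against 0.03 over all genes. With libraries rescaled to a common total, the median of the ribosomal genes was 0.01 and that of all genes 0.15, a distance of -0.14, against -0.15 as deposited.

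Among the genes below 0, Rpl37 was at -0.33 and Rps27l at -0.30. 8 genes were above 0, among them Rps3a3 with 0.36, Rpl7a with 0.32 and Rps4x with 0.23.

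Of the 4 subunit genes that the naming rule leaves out, 3 were lower in F1r than in F1i, like most ribosomal genes. Fau and Rack1 were among them, while Rpl36al went the other way, with an F1r minus F1i difference of 0.02. Fau, made as a fusion with a ubiquitin-like protein, had 236 FPKM in F1r, 261 FPKM in F1i, 252 FPKM in CAST and 248 FPKM in B6. Rack1, a signalling scaffold on the small subunit, had 80.8 FPKM in F1r, 89.1 FPKM in F1i, 87.6 FPKM in CAST and 91.1 FPKM in B6. The F1r minus F1i differences were -0.15 for Fau and -0.14 for Rack1, while their CAST minus B6 differences were 0.02 and -0.06.

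For the 16 genes 2-fold apart between the parents, both hybrids lay between the parents in every case. These genes were picked by the gap between the parents. The same was not counted over the 694 of all 13732 genes that were 2-fold apart, so it is not shown to be particular to ribosomal genes. With B6 set to 0 and CAST to 1 in FPKM, the hybrids had a median place of 0.54 in F1r, with a range from 0.24 to 0.65, and 0.44 in F1i, with a range from 0.36 to 0.64. The lowest place was that of Rpl7a in F1r.

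The mean of the hybrids was at least 2-fold above the mean of the parents on the log2 scale for 3 of 84 genes, Rpl29 with 1.98, Rps2 with 1.28 and Rpl17 with 1.19, and below it for none; 0.277% of all genes were higher and 0.0801% lower. On the log2 scale a level midway in FPKM lies above the mean of very unequal parents, and these are the 3 genes with the largest parental difference. Over the 84 genes the median was -0.004, against 0.002 over all genes. Both hybrids were below both parents for 8 of the 77 plainly named genes, a count not made over all genes. Rpl30 was the furthest, with 104 FPKM in F1r, 107 FPKM in F1i, 143 FPKM in CAST and 141 FPKM in B6, a hybrids minus parents difference of -0.43.

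Of the 4 X-linked genes, 3 had close values in all libraries. Rpl10, which is added late to the large subunit near its catalytic centre, had 177 FPKM in F1r, 188 FPKM in F1i, 184 FPKM in CAST and 173 FPKM in B6. Rpl36a had 202 FPKM in F1r, 218 FPKM in F1i, 208 FPKM in CAST and 198 FPKM in B6, and Rpl39 had 260.4 FPKM in F1r, 274 FPKM in F1i, 254 FPKM in CAST and 263 FPKM in B6.

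Rps4x (chrX:102184941-102189394) and its autosomal copies had another pattern, noticed after the values were seen. Rps4x had 186 FPKM in F1r, 159 FPKM in F1i, 162 FPKM in CAST and 199 FPKM in B6. F1i was level with CAST, and F1r lay between the parents, nearer B6. Rps4x-ps (chr5:3875362-3876154) ran the other way, with 1.11 FPKM in F1r, 9.23 FPKM in F1i, 9.51 FPKM in CAST and 0.851 FPKM in B6. Gm13680 (chr2:83353157-83353949) had 3.29 FPKM in F1r, 12.7 FPKM in F1i, 12.3 FPKM in CAST and 3.61 FPKM in B6. In both copies F1i stood with CAST and F1r with B6, although they are annotated on autosomes.

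Rps4x and Rps4x-ps were identical at 770 of 787 aligned coding bases. A stretch of 75 coding bases of each (GENCODE M21, GRCm38) is shown to compare them with the closer pairs above, with capitals at the bases that differ.
Rps4x: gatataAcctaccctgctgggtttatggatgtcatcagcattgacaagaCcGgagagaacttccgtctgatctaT
Rps4x-ps: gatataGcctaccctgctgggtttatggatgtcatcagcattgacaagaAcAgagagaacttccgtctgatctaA

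The other autosomal copies of Rps4x were closer to each other across libraries. Gm9616 (GENCODE M21 name) on chromosome 13 had 17.4 FPKM in F1r, 26.2 FPKM in F1i, 27.7 FPKM in CAST and 18.4 FPKM in B6. Gm9294 on chromosome 7 had 0.928 FPKM in F1r, 1.92 FPKM in F1i, 2.07 FPKM in CAST and 0.654 FPKM in B6. Rps4x with its 5 copies summed to 199 FPKM times kb in F1r, 194 in F1i, 198 in CAST and 212 in B6, so the total was level across libraries.

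On the same scale, with B6 at 0 and CAST at 1, the 2 autosomal copies of X-linked genes that were 2-fold apart, of 9 with a mean of at least 1 FPKM, were at -0.04 and 0.03 in F1r and at 0.97 and 1.04 in F1i. The 5 of 13 X-linked copies of autosomal genes that were 2-fold apart (Rps2-ps13, Gm8172, Rps24-ps3, Rpl3-ps1 and Rpl21-ps15) were between 0.37 and 0.57 in F1r and between 0.42 and 0.59 in F1i. Rps2-ps13, annotated on the X, had 51.9 FPKM in F1r, 53.7 FPKM in F1i, 90.6 FPKM in CAST and 0.962 FPKM in B6. These 2 autosomal copies, both of Rps4x, were thus near the parents' own levels in the hybrids, the 5 X-linked copies of autosomal genes between them. Why was not tested.

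**Figure D4:**
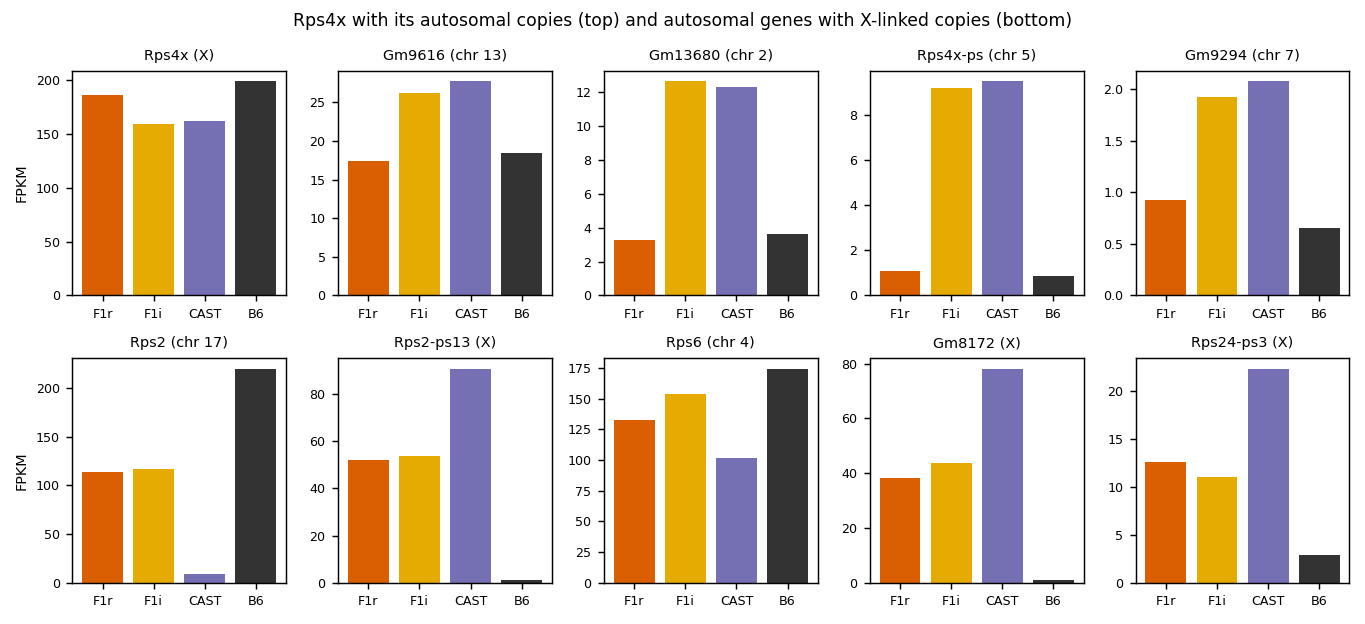
FPKM (linear axes) in each library for the X-linked gene Rps4x and its 4 autosomal copies with a mean of at least 1 FPKM (top row), and for the autosomal genes Rps2 and Rps6 with X-linked copies Rps2-ps13 and Gm8172, and the X-linked copy Rps24-ps3 of Rps24 (bottom row). In the copies of the top row F1i stands nearer CAST and F1r nearer B6, while for Rps4x itself F1r lies between the parents. In the X-linked copies below, both hybrids stand between the parents.

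Other genes of protein synthesis were compared between the parents as lists. The lists held 34 initiation factors, 11 elongation and release factors, 29 nucleolar assembly factors, 12 RNA polymerase I genes and 15 mTOR pathway genes with a mean of at least 1 FPKM. None was 2-fold apart between CAST and B6 in log2(FPKM + 1), where 5.05% of all genes were. Their medians were -0.01, -0.04, -0.01, 0.12 and 0.04. The 4 subunit genes that go by another name had a median of 0.06.

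The furthest genes in each list were inside the rule, which adds 1 to each FPKM. Without the added 1, Mdn1 was more than 2-fold higher in CAST. Among initiation factors the furthest were Eif3l, a subunit of the large eIF3 complex, with -0.55, and Eif4a1, a helicase that opens messenger leaders, with -0.46. Among elongation factors they were Eef1g with -0.55 and Gspt1, a release factor, with 0.34. In the nucleolus Mdn1, a giant ATPase of large subunit assembly, had 6.59 FPKM in F1r, 5.85 FPKM in F1i, 8.43 FPKM in CAST and 4.06 FPKM in B6, a difference of 0.90, and Rrp9 had -0.50.

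Polr1a, the catalytic subunit of RNA polymerase I, had 0.40 and its initiation factor Rrn3 had -0.35. Tsc1, which restrains mTOR, had 0.42, and Larp1, which binds TOP messengers, had 0.34. None of the genes that drive or restrain ribosome production in these lists was past the rule.

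Of 11 other genes with TOP messengers, 1 was lower in CAST, where 2.24% of all genes were, and the median was -0.18. It was Snhg8, a non-coding host of a small nucleolar RNA, with 26.2 FPKM in F1r, 28.8 FPKM in F1i, 9.74 FPKM in CAST and 44.0 FPKM in B6, a difference of -2.07. Snhg6, another such host, was just outside the rule, with 21.2 FPKM in F1r, 19.2 FPKM in F1i, 11.8 FPKM in CAST and 24.2 FPKM in B6, a difference of -0.97. The other 9 lay between -0.66 for Npm1, a nucleolar chaperone, and 0.24 for Pabpc1, a poly(A)-binding protein. Of 78 mitochondrial ribosomal proteins, which serve the separate ribosome inside mitochondria, 5 were lower in CAST and none higher, where 2.24% of all genes were lower and 2.81% higher, and the median was -0.05. Mrpl48 was the furthest, with 15.4 FPKM in F1r, 15.9 FPKM in F1i, 6.19 FPKM in CAST and 25.3 FPKM in B6, a difference of -1.87; the next were Mrpl55 with -1.09, Mrpl27 with -1.07 and Mrps12 with -1.05. Mrps23 was the 1 gene of these 78 that was 2-fold apart between the hybrids, where 0.495% of all genes were, with 1.11 FPKM in F1r, 4.29 FPKM in F1i, 3.43 FPKM in CAST and 3.54 FPKM in B6.

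**Figure D5:**
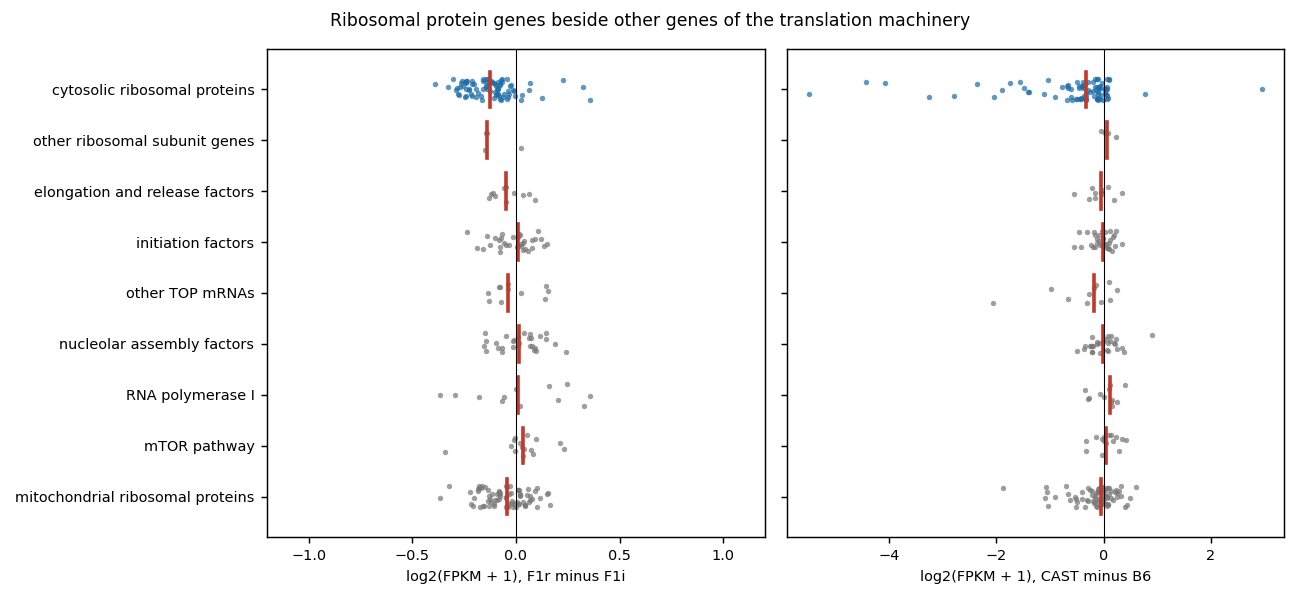
Difference in log2(FPKM + 1) for each gene with a mean of at least 1 FPKM (points, spread vertically for view) in the cytosolic ribosomal protein genes and 8 other lists, F1r minus F1i on the left and CAST minus B6 on the right, with medians in red. The ribosomal protein genes have medians of -0.12 and -0.32, and the initiation factors lie near 0 in both panels. Mrps23, at -1.32 in F1r minus F1i, falls outside the axis of the left panel and is not seen there.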

How the data were processed

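RNA of 4 groups was measured, with 1 pooled library each of strand-specific reads per the labels' protocols. The tools named in the submitters' processing notes are Cufflinks 2.2.1 and Cuffdiff, HISAT2, Trimmomatic 0.36 and bcl2fastq 2.20, and the build named there is mm9. The authors deposited FPKM per transcript. The coordinates fit GRCm38 instead: 99.6% of 128603 transcripts were found in GENCODE M21, and 97.3% had the same start and end, so GRCm38 is used. How reads with several matches were assigned, and whether a CAST genome was used, is not given in the sources used here.

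Transcripts of at least 200 bases outside small RNA genes were summed per gene, and genes with a mean of at least 1 FPKM were compared as log2(FPKM + 1), computed from the deposited values, which understates the change of low genes. No test was run: each group is 1 library, and the hybrids, like the parents, are different genotypes and not replicates of each other. Shared 31-base words were searched in all GENCODE M21 transcripts. The members, lists and alternatives were chosen with earlier results of these data known, the summing over 30% copies after seeing them. Named genes are those 2-fold apart in a comparison, the 5 highest and lowest, those failing the filter, relatives, stalk genes, the named pseudogene of a 2-fold gene that went furthest the other way, and for each other list up to 4 genes past the rule or the 2 furthest. The copies other than named pseudogenes were chosen after their values were seen. So were Rps6, Rpl30, the X-linked genes, Fau, Rack1, Rpl36al, Rpl17-ps3, Snhg6, Npm1 and Pabpc1. Some genes that enter the counts and medians are not reported here by name. Steps ran in Python 3.11.15 with pandas 2.3.3, numpy 2.4.6 and matplotlib 3.10.9, and were tested on simulated data.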

Additional observations from a re-analysis of the deposited data

How the results depend on the processing

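No paired analysis was possible because each group is 1 library. Counts and medians kept their size within 1.5 times or 0.1 under a pseudocount of 0.1, no filter, a filter at 5 FPKM, all transcript lengths and median-ratio scaling. With a 1.5-fold rule, 23 genes were lower and 2 higher in CAST, and 6 were higher in the hybrids. The share of all genes past the 1.5-fold rule was not counted. Among genes with under 20% shared words, 4 were lower and 0 higher in CAST, and 0 higher in the hybrids. Fewer genes were tested there, since only 30 of the 88 were under 20% before the filter. Their CAST minus B6 median was -0.34, close to the -0.32 of all members that passed. Summed with all copies, over 81 families with Rps3a2 counted under Rps3a1, 6 were lower and 0 higher in CAST. In these sums 0 were higher in the hybrids, and the CAST minus B6 median was -0.14. With named pseudogenes alone 12 were lower, with a median of -0.19. A common total gave CAST minus B6 medians of -0.15 over all members, -0.023 for large and -0.17 for small subunit names and -0.020 with named pseudogenes, where 2 were then higher, and an F1r minus F1i median of 0.0065, opposite in sign to -0.12. With all transcripts and small RNA genes in the total, the share of FPKM was 0.878% in F1r, 0.811% in F1i, 0.880% in CAST and 0.873% in B6. With all copies it was 6.92% in F1r, 7.54% in F1i, 6.995% in CAST and 7.68% in B6, and 6.02% in CAST with named pseudogenes.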
